A study of Mus musculus with 18 samples.

Results

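The genes that carry a signal from a G protein-coupled receptor to cyclic AMP (cAMP) and on to transcription were followed in mouse small intestinal organoids treated with adrenergic agonists. The group held 51 of the 55487 genes in the count table, taken from a list by name: heterotrimeric G protein subunits, adenylyl cyclases, cAMP phosphodiesterases, protein kinase A subunits, the CREB transcription factors with their coactivators, the Epac exchange factors, the anchoring protein Akap13, RGS proteins, arrestins and receptor kinases. No expression value was a criterion, but the list was made with earlier results of these data known. The organoids came from 5 wild-type (WT) female C57BL/6 mice and were cultured for 4 days with HCl vehicle (4 samples), norepinephrine at 1 uM (5 samples), DMSO vehicle (4 samples) or UK 14,304 at 1 uM (5 samples), and each vehicle is the control of the agonist dissolved in it. Norepinephrine activates alpha- and beta-adrenergic receptors, and UK 14,304 is an agonist selective for alpha-2 receptors. Both vehicle groups held organoids of mice 1 to 4 only, so mouse 5 had no vehicle sample. The organoids are grown from epithelial crypts, without the tissue around them.

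Alpha-2 adrenergic receptors couple to the inhibitory G proteins (Gi and Go), whose alpha subunits lower the activity of adenylyl cyclase, while beta receptors couple to Gs, which raises it. The cyclases make cAMP, the phosphodiesterases break it down, and protein kinase A and Epac are its main intracellular receptors. Protein kinase A phosphorylates CREB, which then switches on genes with cAMP response elements. RGS proteins shorten the G protein signal, and receptor kinases with arrestins end the signal at the receptor. In the intestine, cAMP is best known for driving chloride secretion.

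RNA was sequenced, and between 21866149 and 27850373 reads per sample were counted on genes. The summed level of 6 epithelial markers was 6940 to 7890 CPM (TMM-normalized counts relative to the library size) in the 18 samples. The 8 markers of fibroblasts and smooth muscle summed to 0.183 to 0.648 CPM, with Dcn at 0 in every sample and no more than 6 counts for any of them. The 5 immune markers summed to 2.96 to 5.05 CPM with Adgre1 at 0. All 5 Paneth cell markers had negative fold changes with both agonists, and in the fit with the mouse as a block 2 passed with norepinephrine (Lyz1 and Defa22) and 3 with UK 14,304 (the same pair and Ang4). Their summed level was 1910 to 2670 CPM with norepinephrine against 2330 to 3570 with HCl vehicle, and 1940 to 2890 with UK 14,304 against 2230 to 3440 with DMSO vehicle. Of the 4 goblet cell markers, 3 had negative fold changes with each agonist, and in the same fit Agr2 passed with UK 14,304 and none with norepinephrine. A single ribosomal RNA gene took over 1% of the reads in 7 libraries, of which 3 were among the 4 DMSO vehicle libraries and 1 among the 5 UK 14,304 libraries. The part of these differences in the values below was not tested beyond the fits named beside them. In bulk RNA, fewer cells of a type and less RNA per cell cannot be told apart.

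The clearest difference was in Adcy1, a calcium-stimulated adenylyl cyclase, which was higher with UK 14,304. With all samples it was the only one of the 51 genes to pass the edgeR test, and it did so only when samples of the same mouse were compared with each other. In that fit 1.22% of all tested genes passed, so 1 of 51 is near the background. Adcy1 lies on chromosome 11 (7063489 to 7178506, plus strand, GRCm38), and no base of its exons lies in an exon of another gene. The 250 bases before its transcription start (RefSeq, GRCm38.p6, chr11:7063183-7063432, plus strand) are shown because they are the promoter of the gene that passed in that fit.

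Adcy1 promoter: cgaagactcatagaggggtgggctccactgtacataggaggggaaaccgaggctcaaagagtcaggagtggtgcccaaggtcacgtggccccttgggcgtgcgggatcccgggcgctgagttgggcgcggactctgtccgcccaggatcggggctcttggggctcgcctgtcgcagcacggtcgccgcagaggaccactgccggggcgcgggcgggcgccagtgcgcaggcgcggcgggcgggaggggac

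This stretch has no capitals because it held neither the full cAMP response element TGACGTCA nor its shorter core TGACG on either strand. RefSeq promoters were matched for 38 of the 51 genes, with 67 transcription starts in all. Of these, 1 held the full element and 19 (28.4%) the core, which is part of the full element, against 1.55% and 17.8% of all 32851 promoters of the same length. A gene can have several starts, and some windows of Gnas overlap, so the starts are not independent and the shares were not tested. The full element stood 49 bases before a start of Prkar1a, the type I alpha regulatory subunit of protein kinase A (chr11:109650884-109650923, plus strand, element in capitals).

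Prkar1a element: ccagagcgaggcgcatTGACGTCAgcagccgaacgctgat

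A match of letters is a description of the sequence and says nothing of whether a factor binds there.

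Adcy1 was counted at 17.33, 20.87, 23.04, 23.26 and 24.04 CPM in the UK 14,304 samples and at 13.34, 16.31, 17.46 and 19.22 CPM in the DMSO vehicle samples. The groups overlapped, since mouse 2 had the lowest value in each of the 4 groups, but every mouse with both samples was higher with the agonist. Within mice the log2 difference was 0.27, 0.38, 0.56 and 0.26 in mice 1, 2, 3 and 4. In the edgeR fit with the mouse as a block the log2 fold change was 0.38 (SE 0.0689, 1.31-fold), with a Benjamini-Hochberg adjusted p of 0.00657 over all genes. Without the block the fold change was nearly the same (0.39, SE 0.108) but the adjusted p was 0.28. The call was lost when mouse 2 (adjusted p = 0.0585) or mouse 3 (adjusted p = 0.167) was left out of the blocked fit, with log2 fold changes of 0.39 and 0.33. It held when a split of the libraries at 1% ribosomal RNA was entered as a further factor (edgeR adjusted p = 0.0404). In mice 2 and 3 that share was 2.61% and 3.06% with DMSO vehicle and 0.529% and 0.619% with UK 14,304. In mice 1 and 4 it was 2.41% and 0.351% with DMSO vehicle and 1.97% and 0.340% with UK 14,304. The part of this in the call was not tested beyond that fit.

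With norepinephrine, Adcy1 stood at 18.6, 19.3, 20.4, 20.6 and 21.4 CPM against 13.5, 17.0, 17.9 and 18.9 CPM with HCl vehicle. These groups overlapped only through the norepinephrine sample of mouse 2 and the vehicle sample of mouse 1, and all 4 mice were higher with the agonist. The log2 fold change was 0.26 (SE 0.0698) with the block and did not pass the edgeR test (adjusted p = 0.466). The Adcy1 fold change with UK 14,304 minus that with norepinephrine was 0.13 (SE 0.0955, adjusted p = 1.0 in the same fit). The call with UK 14,304 alone is therefore not shown to set the agonists apart.

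**Figure D1:**
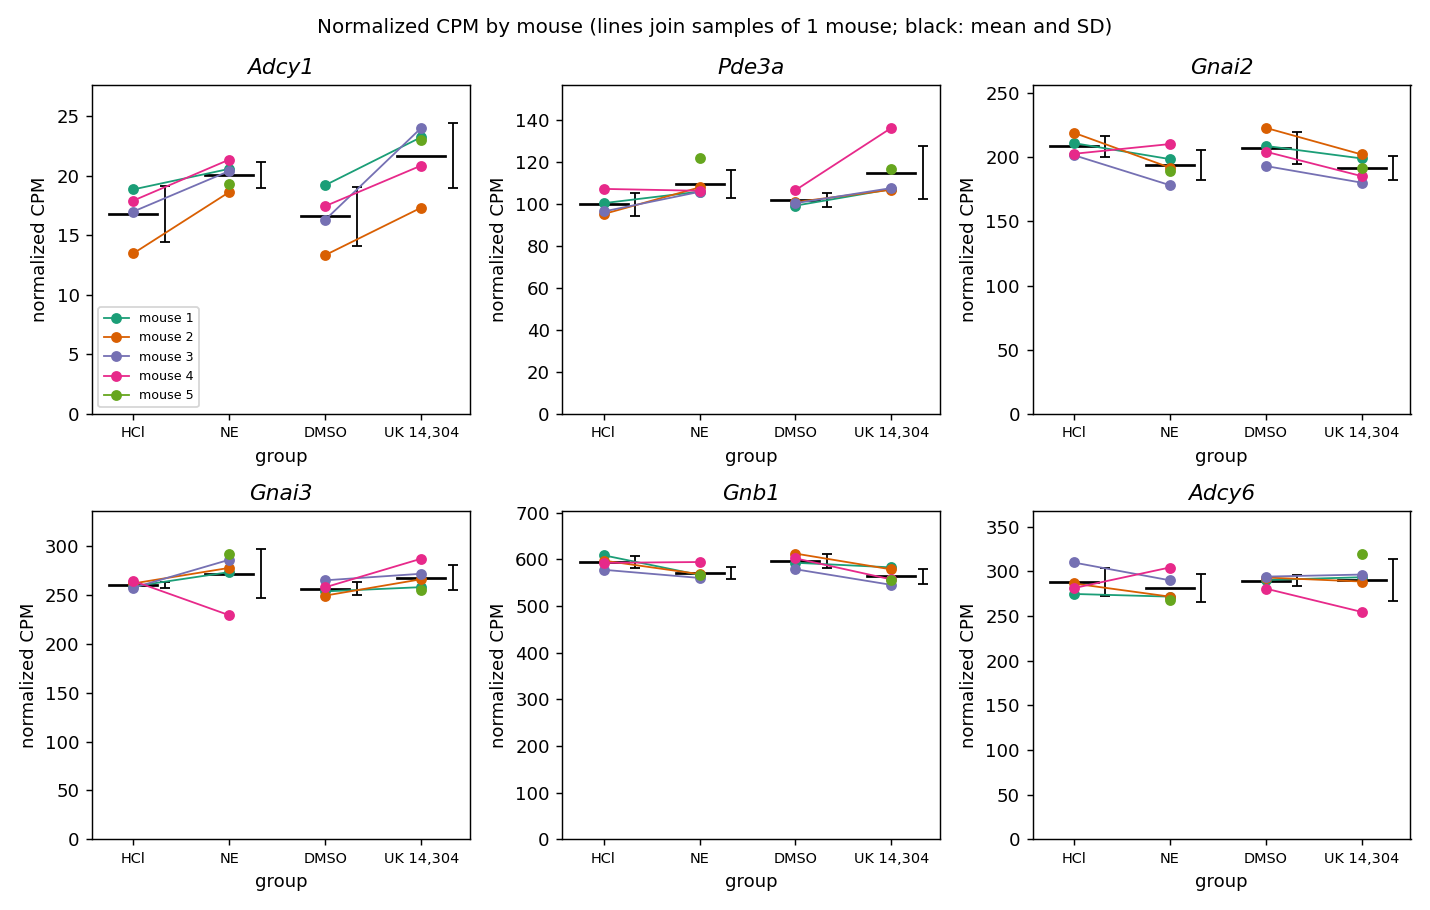
Normalized CPM of 6 genes (vertical axes, from 0) in the 4 groups (HCl and DMSO are the vehicles, NE is norepinephrine), with a colour for each mouse, lines joining agonist and own vehicle of a mouse, and the mean and SD in black. Adcy1 was higher with the agonist in every mouse with both samples, from 13.34 CPM at the lowest to 24.04 CPM at the highest, while Adcy6 stayed between 255 and 320 CPM.

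Over the whole group, few differences were found. Without the block, 0 of the 51 genes passed for norepinephrine (background 0%), 0 for UK 14,304 (background 0.0394%) and 0 for the difference between the agonists (background 0%), where the background is the share of all 15247 tested genes that passed the same edgeR test. At an unadjusted p under 0.05 there were 4 genes for norepinephrine (background 6.18%), 7 for UK 14,304 (background 11.2%) and 0 for the difference (background 1.51%). In the blocked fit, norepinephrine had 0 genes that passed (background 0.105%), with 1 for UK 14,304 (background 1.22%) and 0 for the difference (background 0%), and at an unadjusted p under 0.05 there were 7 (background 8.4%), 7 (background 14.8%) and 0 (background 2.66%). DESeq2 without the block called 0 for each agonist. The shares were near those of all genes. All 51 genes passed the filter on low counts.

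The median log2 fold change of the 51 genes without the block was -0.02 with norepinephrine and -0.03 with UK 14,304, against -0.0077 and -0.0041 over all tested genes. The fold changes lay between -0.45 and 0.49 with norepinephrine and between -0.71 and 0.39 with UK 14,304. In absolute size, 39 and 38 of the 51 stayed under 0.2. The precision differed with the level of the gene, as the standard error was under 0.1 for 28 genes in both comparisons and reached 0.44 for norepinephrine and 0.42 for UK 14,304 among the least expressed. Small differences in the least expressed genes were therefore not detectable, and 17 of the 51 were under 100 counts in every sample.

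Direction was also compared mouse by mouse. With norepinephrine, 6 genes were higher in 4 of 4 mice (background 5.32%) and 4 were lower (background 8.26%). The first were Adcy1, Pde7a, Pde8a, Prkacb, Prkar2b and Rgs2, and the second Adcy8, Pde4d, Crtc3 and Arrb1. With UK 14,304, 10 were higher (background 14%) and 8 were lower (background 15.5%). The first were Gnai3, Adcy1, Adcy5, Pde3a, Prkacb, Prkar1a, Prkar2a, Creb1, Atf1 and Rgs19, and the second Gnai2, Gnaz, Gnas, Gna11, Gnb1, Gnb2, Arrb1 and Grk5. The sample groups did not overlap for 0 genes with norepinephrine, higher (background 0.643%) or lower (background 0.78%). With UK 14,304 they did not overlap for 1 gene that was higher, Pde3a (background 1.72%), and 1 that was lower, Gnaz (background 1.78%).

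**Figure D2:**
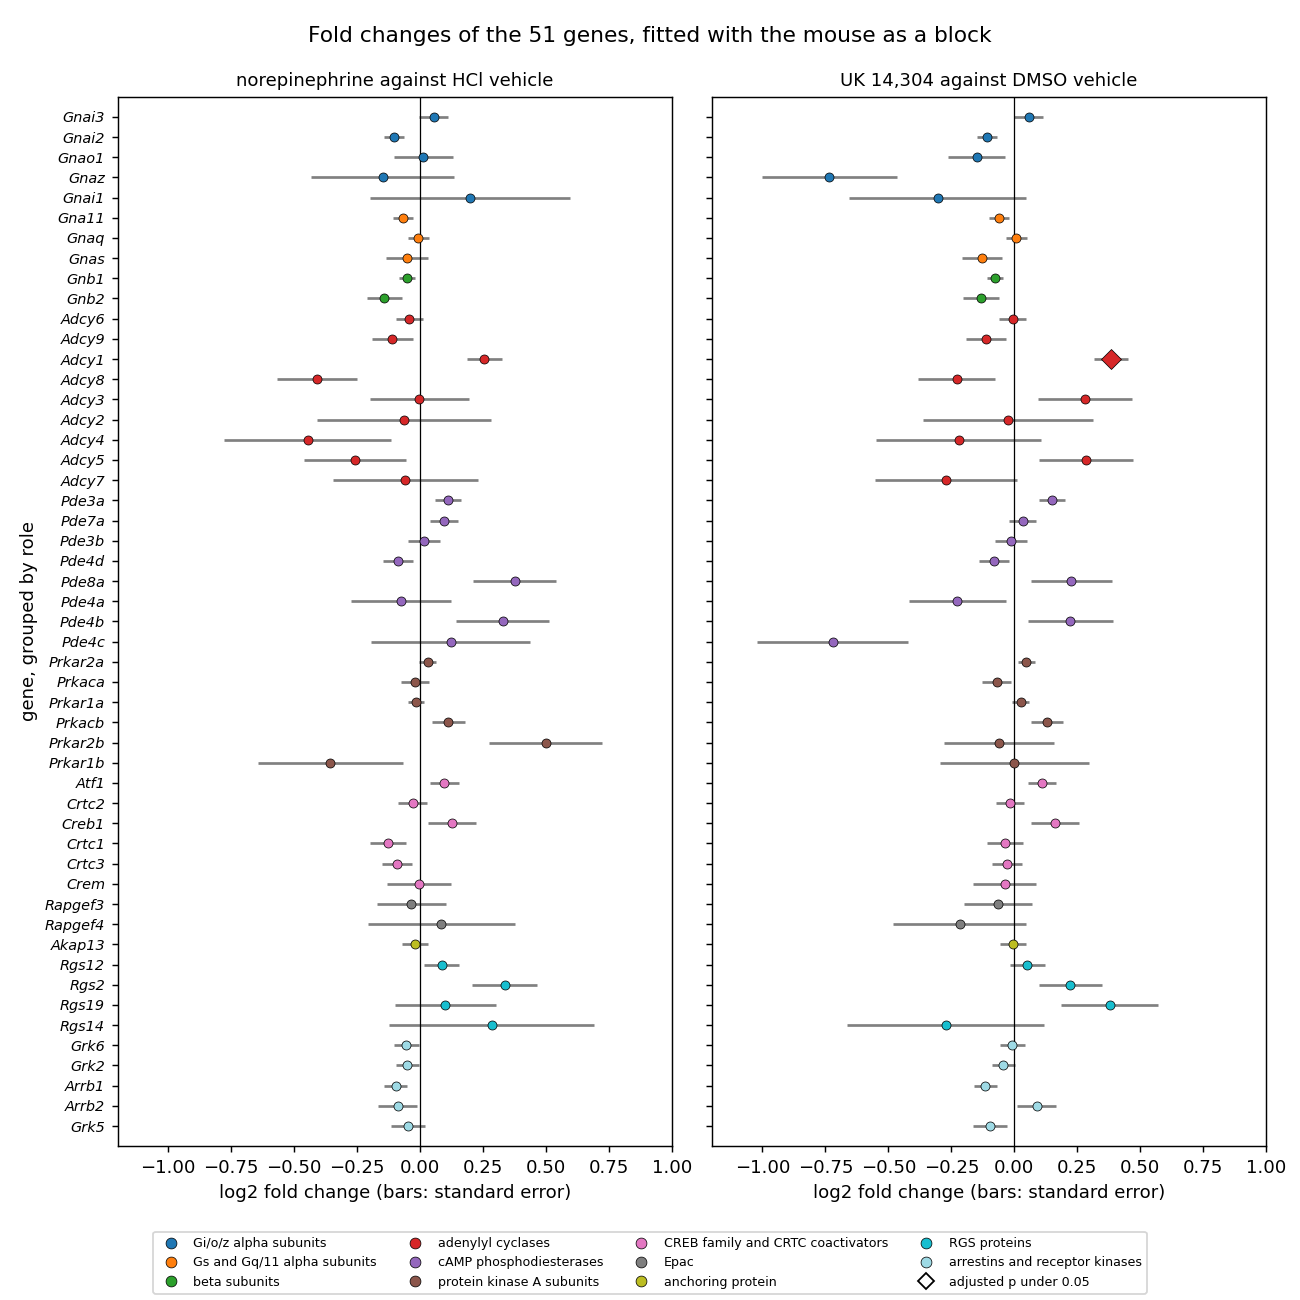
Log2 fold changes (horizontal axes, bars are standard errors) of the 51 genes for norepinephrine against HCl vehicle and UK 14,304 against DMSO vehicle, fitted with the mouse as a block, with colours for the role of the gene. The only diamond, for an adjusted p under 0.05, is Adcy1 with UK 14,304 at 0.38, and most other points lie close to 0.

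Among the inhibitory alpha subunits, which pass on the signal of alpha-2 receptors, Gnai3 and Gnai2 made up nearly the whole. Genes were compared per kilobase of merged exon, which can be longer than the transcript expressed, so their order depends on the annotation. The mean level over 18 samples was 81.0 CPM per kb for Gnai3 (SD 4.64) and 52.8 for Gnai2 (SD 3.28). They held 60.1% and 39.2% of the summed level of the 5 Gi, Go and Gz alpha genes. Gnai3 was above Gnai2 in every sample. Gnao1 (0.504 CPM per kb), Gnaz (0.201) and Gnai1 (0.122) followed far below, and the ranges of Gnaz and Gnai1 overlapped.

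Gnai2 was counted at 180, 185, 192, 199 and 202 CPM with UK 14,304 and at 193, 205, 209 and 223 CPM with DMSO vehicle. It was lower with the agonist in all 4 mice, though the groups overlapped. The log2 fold change was -0.11 (SE 0.0518, edgeR adjusted p = 0.434). With norepinephrine it was counted at 178, 190, 192, 199 and 210 CPM against 202, 203, 211 and 219 with HCl vehicle, which gave -0.11 (SE 0.0518, edgeR adjusted p = 0.713). Mouse 4 was the only mouse in which Gnai2 was not lower with norepinephrine.

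Gnai3 stood at 229, 273, 277, 286 and 292 CPM with norepinephrine and at 257, 258, 261 and 264 CPM with HCl vehicle. The lowest norepinephrine value, from mouse 4, was below every vehicle value, and the other 4 were above them. The log2 fold change was 0.06 (SE 0.0554, edgeR adjusted p = 0.766). With UK 14,304 the values were 255, 258, 266, 271 and 287 CPM against 249.0, 253.3, 257.5 and 264.6 with DMSO vehicle, and the fold change was 0.06 (SE 0.0554, edgeR adjusted p = 0.662). Both fold changes of Gnai3 turned negative when a trend with GC content was removed from each library.

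Gnai1 was counted only 2 to 18 times per library. It had 0.0918, 0.370, 0.407, 0.473 and 0.507 CPM with norepinephrine and 0.163, 0.348, 0.366 and 0.383 with HCl vehicle, and 0.215, 0.304, 0.329, 0.346 and 0.744 with UK 14,304 and 0.365, 0.452, 0.501 and 0.503 with DMSO vehicle. The groups overlapped in both comparisons. The log2 fold changes were 0.26 (SE 0.406) and -0.25 (SE 0.369), with edgeR adjusted p of 0.862 and 0.81. With norepinephrine the value was 0.05 without the HCl vehicle sample of mouse 4 and 0.49 without the norepinephrine sample of mouse 2. With UK 14,304 it was -0.61 without the agonist sample of mouse 3 and -0.09 without that of mouse 2.

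Gnaz, an alpha subunit found mainly in neurons and platelets, was 0.63-fold with UK 14,304 on a level of 9 to 31 counts, with 0.329, 0.569, 0.620, 0.682 and 0.778 CPM against 0.812, 0.851, 0.904 and 1.20 with DMSO vehicle. Its groups did not overlap, yet the log2 fold change of -0.67 (SE 0.25) did not pass the edgeR test (adjusted p = 0.395). The HCl vehicle samples, at 0.640 to 0.894 CPM, overlapped with the samples of both agonists.

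The other alpha subunits were led by Gna11 of the Gq class, which activates phospholipase C rather than a cyclase and had the highest level of the 51 genes with Gnas set aside, at 188 CPM per kb (SD 11.2). Its sample values were 693 to 836 CPM. They were 695, 729, 761, 776 and 821 with UK 14,304 and 721, 795, 805 and 833 with DMSO vehicle, and 693, 731, 751, 754 and 824 with norepinephrine and 736, 769, 809 and 836 with HCl vehicle. The groups overlapped, and the log2 fold changes were -0.06 with UK 14,304 and -0.07 with norepinephrine (SE 0.0574 for both), with edgeR adjusted p of 0.689 and 0.751. Both turned positive when the GC trend was removed. Gnaq, of the same class, was at 12.4 CPM per kb.

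The level of Gnas, which encodes the stimulatory subunit Gs alpha, could not be read from these counts. It appeared at only 207 to 346 counts per library, or 1.02 CPM per kb. Genes on the opposite strand, annotated as Gm20721 and Nespas, share exon bases with it, and reads over several genes were not counted. Of the transcripts for Gs alpha, 85.4% of the bases of Gnas-208, 84.7% of Gnas-206 and 80.4% of Gnas-207 lay in exons of another gene. Gm20721 itself had 0 to 2 counts per library. The reads that were counted gave log2 fold changes of -0.05 (SE 0.0821) and -0.13 (SE 0.0796) with the block, neither of which passed the edgeR test (adjusted p = 0.824 and 0.455).

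The beta subunits Gnb1 and Gnb2, which bind the alpha subunits together with a gamma subunit, were at 136 (SD 4.55) and 70.8 (SD 6.10) CPM per kb. Gnb1 had 545, 556, 557, 578 and 583 CPM with UK 14,304 and 579, 593, 602 and 612 with DMSO vehicle, so that only the highest agonist value lay within the vehicle range. The log2 fold change was -0.08 (SE 0.0358, edgeR adjusted p = 0.419), and all 4 mice were lower. With norepinephrine its values were 560, 567, 567, 568 and 594 CPM against 578, 592, 597 and 609 with HCl vehicle, and the sample of mouse 4 was the highest with the agonist and within the vehicle range, and this gave a log2 fold change of -0.06 (SE 0.0358, edgeR adjusted p = 0.722). For Gnb2 the fold changes were -0.15 with both agonists and did not pass either.

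The adenylyl cyclases were dominated by Adcy6, a cyclase that Gi and calcium inhibit, at 42.4 CPM per kb (SD 2.33). It held 88.3% of the summed level of the 9 genes, against 5.31% for Adcy9, 3.17% for Adcy1 and 1.48% for Adcy8. The gene that passed the test was thus a minor cyclase by RNA level. Adcy6 had 255, 289, 294, 297 and 320 CPM with UK 14,304 and 281, 290, 293 and 294 with DMSO vehicle, and 268, 272, 272, 290 and 304 with norepinephrine and 275, 281, 287 and 310 with HCl vehicle. The groups overlapped. The log2 fold changes were 0.0049 with UK 14,304 and -0.04 with norepinephrine (SE 0.0558 for both), and the edgeR adjusted p was 0.979 and 0.864.

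Adcy8, which like Adcy1 is stimulated by calcium and calmodulin, had negative fold changes. With norepinephrine its values were 3.34, 3.62, 4.38, 5.77 and 8.22 CPM against 3.79, 4.88, 7.69 and 9.64 with HCl vehicle. It was lower in all 4 mice, most in mouse 3 with a log2 difference of -1.18 against -0.07, -0.23 and -0.15 in mice 1, 2 and 4, and mouse 2 was the highest in every group. The log2 fold change with the block was -0.41 (SE 0.158, edgeR adjusted p = 0.56), and without it the standard error was 0.324. With UK 14,304 it was -0.23 (SE 0.153, edgeR adjusted p = 0.489), and -0.08 without mouse 4, in which the difference was -0.81. The other cyclases, Adcy2, Adcy3, Adcy4, Adcy5 and Adcy7, were at or below 0.306 CPM per kb with ranges that overlapped from neighbour to neighbour, and Adcy3 shared 22.1% of its exon bases with Cenpo on the opposite strand.

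**Figure D3:**
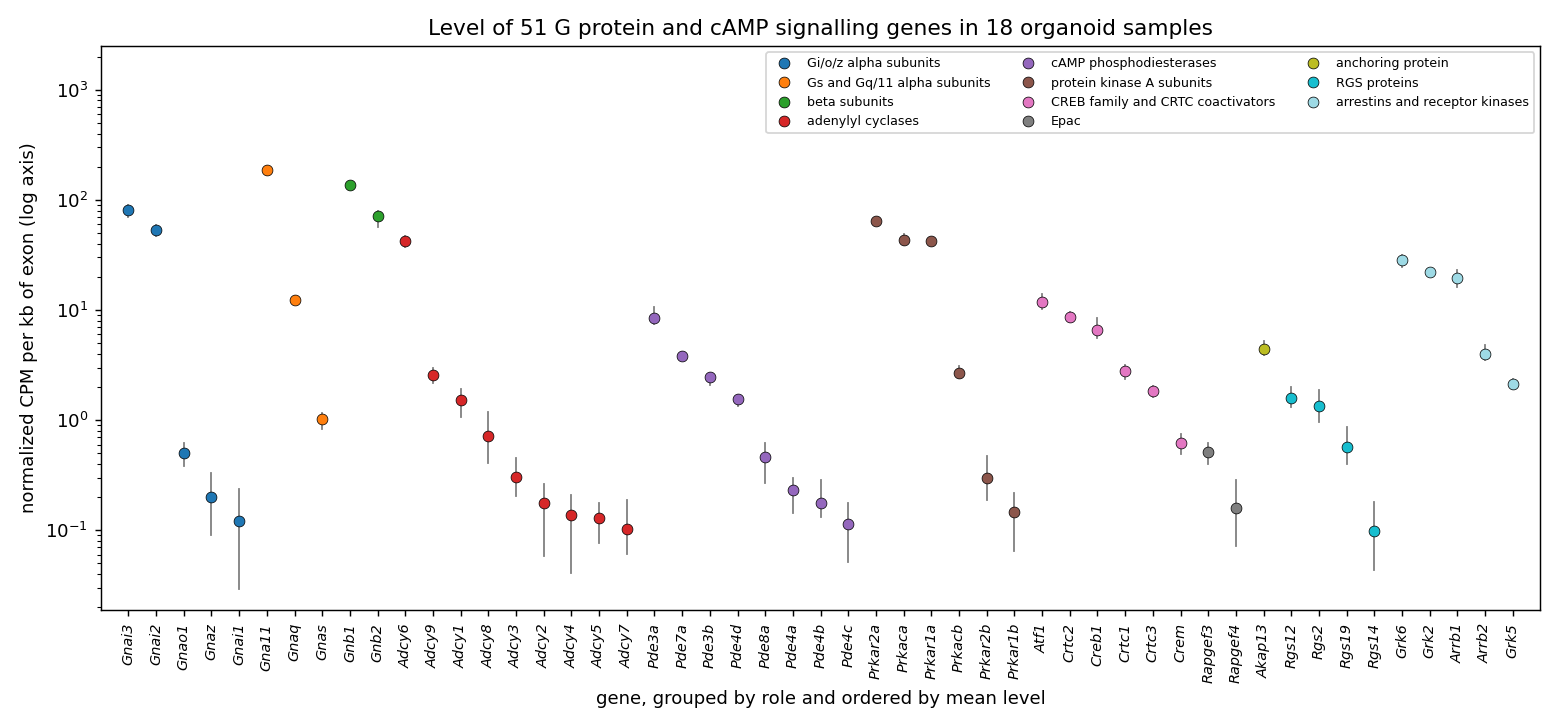
Level of the 51 genes in normalized CPM per kb of exon (vertical log axis), as the mean (point) and range (line) over 18 samples, grouped by role. Within most roles the levels span a wide range, with Adcy6 at 42.4 among the cyclases and Gnai3 at 81.0 and Gnai2 at 52.8 among the inhibitory subunits on top.

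Pde3a led the phosphodiesterases at 8.40 CPM per kb (SD 0.763), or 48.8% of the summed level of the 8 genes. It encodes an enzyme that hydrolyses cAMP and is inhibited by cGMP. With UK 14,304 it was counted at 106.7, 107.0, 107.5, 116.7 and 136.2 CPM, and with DMSO vehicle at 99.12, 100.3, 100.8 and 106.5 CPM. The groups did not overlap, though the lowest agonist and the highest vehicle value lay close together, and all 4 mice were higher. This gave a log2 fold change of 0.17 (SE 0.0646, edgeR adjusted p = 0.389), and 0.15 (SE 0.0511, edgeR adjusted p = 0.189) with the block. Mouse 4 had the highest value, and without it the blocked fold change was 0.09 (edgeR adjusted p = 0.164). With norepinephrine the values were 105.7, 105.8, 106.2, 107.8 and 121.6 CPM against 95.1, 96.33, 100.3 and 107.1 with HCl vehicle, with a fold change of 0.13 (SE 0.0648, edgeR adjusted p = 0.713). The gene shares 5.82% of its exon bases with a transcript on the opposite strand.

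Pde7a (3.80 CPM per kb), Pde3b (2.44) and Pde4d (1.54) came next among these 8 genes, and Pde8a, Pde4a, Pde4b and Pde4c were below 0.5. Pde8b, outside the group, was at 1.73. Of the 8 genes, 6 had a positive and 2 a negative fold change with norepinephrine, and 5 and 3 with UK 14,304, in the fit without the block. Pde4b, which is itself a cAMP-induced gene, had fold changes of 0.33 (SE 0.185) and 0.22 (SE 0.169) with the block and did not pass. Pde4c was counted 7 to 24 times.

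Among the protein kinase A genes, the regulatory subunit Prkar2a was at 63.9 CPM per kb (SD 1.56), and the catalytic subunit Prkaca and the regulatory subunit Prkar1a at 43.4 and 42.5, with ranges that overlapped. Prkar2a had 399, 410, 411, 411 and 414 CPM with norepinephrine and 398, 401, 403 and 409 with HCl vehicle, and 395, 406, 414, 419 and 438 with UK 14,304 against 399, 401, 406 and 406 with DMSO vehicle. The groups overlapped, and the log2 fold changes were 0.02 (SE 0.0352) and 0.04 (SE 0.0352), with edgeR adjusted p of 0.863 and 0.655 for norepinephrine and UK 14,304. Prkar2b, at 16 to 42 counts, was higher with norepinephrine in all 4 mice with a log2 fold change of 0.50 (SE 0.226) with the block, which did not pass the edgeR test (adjusted p = 0.589). After UK 14,304 it was higher in 2 mice and lower in the other 2, and the blocked fold change was -0.06 (SE 0.219).

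In the CREB group, Atf1 had the highest level per length at 11.8 CPM per kb (SD 0.814). The coactivator Crtc2 (8.66) and Creb1 (6.64) followed, with ranges of the latter pair overlapping. Before division by exon length, Creb1 was the higher, at a mean of 91.2 CPM against 36.1 for Atf1. Atf1 had 34.6, 36.2, 36.8, 36.8 and 42.8 CPM with UK 14,304 and 33.4, 34.5, 34.6 and 36.6 with DMSO vehicle. With norepinephrine it had 35.1, 35.4, 37.1, 37.2 and 40.2 CPM against 31.2, 35.6, 35.7 and 36.4 with HCl vehicle. The groups overlapped in both comparisons, and the log2 fold changes were 0.11 (SE 0.0623) and 0.09 (SE 0.0626), with edgeR adjusted p of 0.509 and 0.725 for UK 14,304 and norepinephrine. Without the UK 14,304 sample of mouse 4, at 42.8 CPM, the first was 0.05. Crem, whose short form is a cAMP-induced repressor, was counted 72 to 114 times.

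The Epac genes, which encode exchange factors for Rap that cAMP switches on, were low, with Rapgef3 at 0.511 CPM per kb (SD 0.0616) and Rapgef4 at 0.158. Rapgef3 had 2.54 to 3.59 CPM with UK 14,304 and 2.635 to 3.586 with DMSO vehicle, and 2.89 to 3.79 with norepinephrine and 3.17 to 3.96 with HCl vehicle. Its log2 fold changes were -0.07 (SE 0.133) and -0.04 (SE 0.133), with edgeR adjusted p of 0.872 and 0.941 for UK 14,304 and norepinephrine. Akap13, an anchoring protein for protein kinase A, was at 4.38 CPM per kb (SD 0.326), with 81.7 to 109 CPM in the norepinephrine samples and 88.5 to 101 with HCl vehicle, and 87.3 to 98.7 with UK 14,304 and 86.4 to 97.8 with DMSO vehicle. Its log2 fold changes were -0.01 (SE 0.0710) and -0.002 (SE 0.0708), with edgeR adjusted p of 0.967 and 0.993 for norepinephrine and UK 14,304.

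Rgs12 and Rgs2 had the highest levels of the RGS genes in the group, at 1.58 (SD 0.210) and 1.36 (SD 0.220) CPM per kb, with overlapping ranges. Outside the group, the means of Rgs13 (2.93), Rgs11 (2.58) and Rgs3 (1.62) were higher. Rgs12 had 11.2 to 15.8 CPM with norepinephrine, 11.1 to 16.2 with HCl vehicle, 12.1 to 17.0 with UK 14,304 and 11.3 to 15.1 with DMSO vehicle, with log2 fold changes of 0.03 (SE 0.127) and 0.0055 (SE 0.126) and edgeR adjusted p of 0.952 and 0.99 for norepinephrine and UK 14,304. Rgs2, which acts on Gq and is induced by cAMP, had 4.52, 4.61, 5.17, 5.19 and 6.75 CPM with norepinephrine and 3.48, 3.70, 4.35 and 5.03 with HCl vehicle. It was higher in all 4 mice, by 0.34 (SE 0.133) on the log2 scale, and did not pass the edgeR test (adjusted p = 0.713).

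Grk6 (28.5 CPM per kb, SD 2.06), Grk2 (22.1) and Arrb1 (19.7) had the highest levels per length of the 5 genes of receptor shutdown, and Grk2 and Arrb1 overlapped. Before division by exon length, Arrb1 was the highest, at a mean of 220 CPM against 120 for Grk6 and 99.1 for Grk2. Outside the group, Grk3 was at 4.72 CPM per kb, above Arrb2 (4.00) and Grk5 (2.13). Grk6 had 104 to 124 CPM with norepinephrine and 107 to 131 with HCl vehicle, and 109 to 133 with UK 14,304 and 118 to 126 with DMSO vehicle. Its log2 fold changes were -0.06 (SE 0.0682) and -0.007 (SE 0.0680), with edgeR adjusted p of 0.812 and 0.976 for norepinephrine and UK 14,304. All 5 genes of this role had a negative fold change with norepinephrine, from -0.09 to -0.04, and none passed. Arrb1, beta-arrestin 1, was lower in all 4 mice with each agonist, and the fold changes with the block were -0.10 (SE 0.0460) and -0.12 (SE 0.0463), neither of which passed.

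Differences between mice took much of the spread of several genes. Of the variance within groups on the log2 scale, mean differences between the mice held 85.7% for Rgs12, 79.6% for Arrb1, 79.6% for Adcy1, 78.5% for Adcy8 and 71.4% for Gna11. The median over the 51 genes was 33.1%, and 35.5% over all tested genes. Mean differences between the mice held the larger part of this variance in 13 of the 51 genes (25.5%), against 31.5% of all tested genes. Rgs12 was highest in mouse 3 and Arrb1 lowest in mouse 3, while Adcy8 was highest and Adcy1 lowest in mouse 2. Grk2 (5.41%) and Gnai3 (9.15%) showed little of this. Means of a few samples per mouse hold part of the variance even where mice do not differ. That part was not estimated, so the percentages do not measure true differences between mice alone.

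With norepinephrine, mouse 4 often moved in another direction than the rest. Mice 1, 2 and 3 had the same direction for 29 of the 51 genes, and in 19 of these (65.5%) mouse 4 had the opposite one. Over all tested genes the share was 71.8%, and with any other mouse set against the rest it was 33.8% to 38.6%. Both norepinephrine and HCl vehicle libraries of mouse 4 had more reads on the ribosomal RNA gene, 1.98% and 2.02%, against 0.313% to 0.464% in those of mice 1 to 3. The cause of the difference was not tested.

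Without mouse 4, in the fit with the mouse as a block, 10 of the 51 genes passed for norepinephrine, beside 15.1% of all tested genes (background 15.1%). The 5 that rose were Adcy1 (0.26), Gnai3 (0.12), Pde3a (0.14), Creb1 (0.20) and Rgs2 (0.41), and the 5 that fell were Gnai2 (-0.15), Gnb2 (-0.19), Gna11 (-0.09), Crtc1 (-0.19) and Adcy8 (-0.47), as log2 fold changes with edgeR adjusted p of 0.000675 to 0.0465. For UK 14,304 the same fit called 1 of the 51 genes, Adcy1 (0.42, edgeR adjusted p = 0.000561), beside a background of 3.83%. Each mouse was left out in turn in this way, and no omission other than that of mouse 4 called any of the 51 genes for norepinephrine. Mouse 4 was the one that moved against the others, and leaving it out raises agreement among those kept. The norepinephrine calls of this fit are therefore not separate support for these genes.

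**Figure D4:**
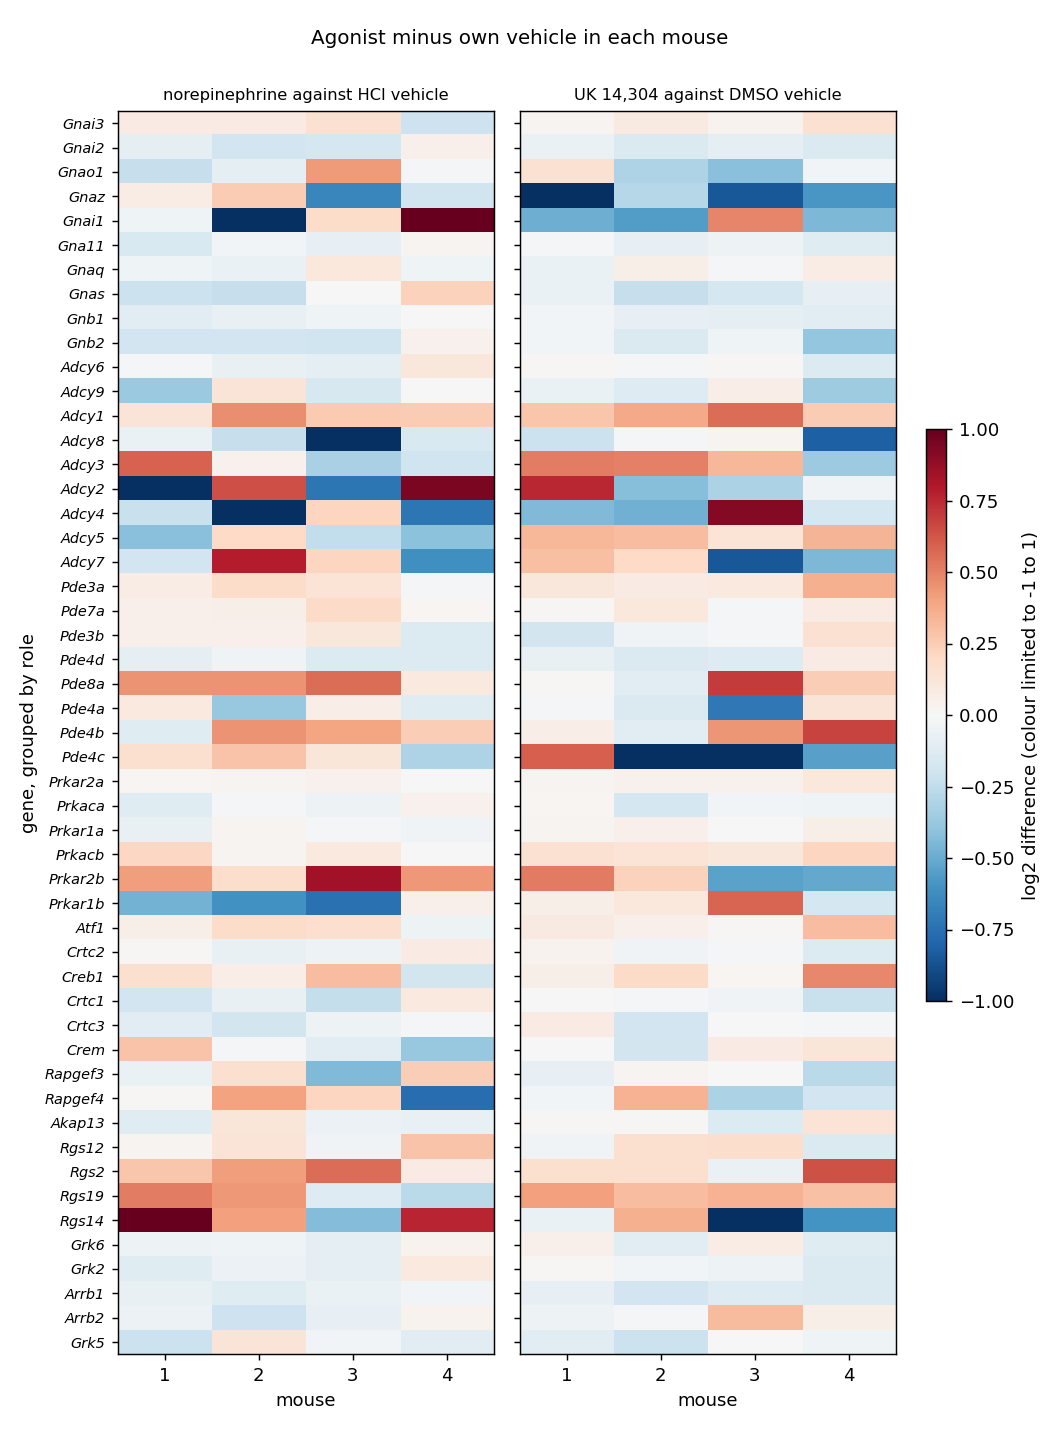
Log2 difference of agonist minus own vehicle in each of 4 mice (columns) for the 51 genes (rows, grouped by role), on log2 of CPM plus 0.1, with red for higher and blue for lower with the agonist and the colours limited to -1 and 1. Adcy1 is red in all 8 columns, from 0.13 to 0.56, and the norepinephrine column of mouse 4 often has the colour opposite to mice 1 to 3.

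The surrounding pathway was read from 97 further genes, of which 59 passed the filter on low counts. Without the block 0 of the 59 passed for either agonist. In the blocked fit 3 passed with UK 14,304 and 0 with norepinephrine, and all 3 belong to the cAMP target genes, with 18 tested. The share of all tested genes that passed in this fit was 1.22% with UK 14,304 and 0.105% with norepinephrine. The lists were chosen with earlier results of these data known, so setting the target genes against these shares is not a test of them. Junb, an AP-1 subunit, fell from 63.0 ± 11.3 CPM (SD, n = 4) with DMSO vehicle to 46.8 ± 9.19 CPM (SD, n = 5), with a log2 fold change of -0.44 (SE 0.0801, edgeR adjusted p = 0.00793). Areg, which encodes the EGF receptor ligand amphiregulin, fell from 21.4 ± 5.32 to 16.8 ± 3.22 CPM, with a log2 fold change of -0.35 (SE 0.0703, edgeR adjusted p = 0.0143). Egr1, an immediate early transcription factor, rose from 18.9 ± 3.29 to 23.9 ± 2.59 CPM, with one of 0.34 (SE 0.062, edgeR adjusted p = 0.00658). Of the 18 target genes, 8 had a positive and 10 a negative fold change with UK 14,304, with a median of -0.06. With norepinephrine, in the fit without the block, 5 were positive and 13 negative, with a median of -0.075. In the blocked fit the norepinephrine fold changes were -0.35 for Junb, -0.19 for Areg and -0.07 for Egr1 (edgeR adjusted p = 0.195, 0.556 and 0.697). Crem, Pde4b, Pde4d and Rgs2 of the 51 genes are among these 18 and not among the 59. These genes respond to other signals than cAMP as well.

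Further gamma subunits, RGS genes, phosphodiesterases, kinase inhibitors and anchoring proteins, and coactivators held no gene that passed in either fit. Adra2a, the alpha-2A adrenergic receptor at the head of this pathway, had 571 to 830 counts per library and passed in neither comparison.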

How the data were processed

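Mouse small intestinal organoids were profiled by RNA-seq in 18 samples of 4 groups. The authors prepared libraries with the KAPA mRNA HyperPrep kit and mapped 50 bp single reads to GRCm38 with STAR 2.7.3. The deposited values are raw counts per gene, which the authors made with featureCounts, and per the file header this was version 2.0.1 with Ensembl 102, while the methods name Subread 1.6.4 and Ensembl 98. The recorded command gave no strand option and did not count reads that overlap several genes, which lowers genes with overlapping neighbours: 14 of the 51 genes share exon bases with another gene. Symbols were matched for 55141 of 55487 identifiers, and 0 sample columns were left unused. Gene positions and exon overlaps were taken from the coordinates deposited with the counts. Transcript models and GC content came from GENCODE M21 (GRCm38).

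The counts were tested in R 4.3.3 with edgeR 4.0.16 (TMM, filterByExpr by group, robust quasi-likelihood fit of all 18 samples), which left 15247 genes. Adjusted p is Benjamini-Hochberg over all tested genes, and values under 0.05 passed. The authors' methods name DESeq2 with no formula and no pairing, so the fit without the mouse was the main one, although the mouse of each sample is given in the labels. Same-mouse deviations from the group means correlated in all 8 pairs of an agonist and its own vehicle (mean r = 0.317, from 0.119 to 0.520), against a mean of -0.0784 for different mice. Over all 25 same-mouse pairs of any groups the mean was 0.277 and the lowest -0.212, for the agonist samples of mouse 4. Values from the fit with this pairing, the replicate block, are given for some genes and named as such, also where they change no call. The block raised the genes called for UK 14,304 from 0 to 1 of the 51.

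The depth of 21866149 to 27850373 counts per sample leaves genes of a few counts with wide errors. Alternatives were DESeq2 1.42.0, its size factors, no filter (at least 1 count), the own vehicle only, a ribosomal RNA split at 1%, a lowess (span 0.3) GC trend removed from each library, and leaving out each mouse or sample. CPM per kb is normalized CPM divided by the merged exon length. The members and the lists of other genes were chosen with earlier results of these data known. Described with their values and tests are genes that passed in either fit, Gnai1, Gnai2 and Gnai3, and the gene of each role with the highest level per length. Gnaz, Gnb2, Adcy8, Rgs2, Pde4b, Prkar2b, Arrb1 and Gnas were chosen after their values were seen. Samples came from separate mice within a group, and the same mice recur across groups.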

Additional observations from a re-analysis of the deposited data

Results flagged for a closer look

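In 8 of 56 groups tested (14 genes in 4 groups), 1 sample stood apart from the rest of its group by the Dixon criterion, which chance meets in about 1 in 20 groups. Gnai1 was at 0.163 CPM in the HCl vehicle sample of mouse 4 (others 0.348 to 0.383) and at 0.744 CPM in the UK 14,304 sample of mouse 3 (others 0.215 to 0.346). In the norepinephrine sample of mouse 4, Gnb1 was at 594 CPM (others 560 to 568) and Prkar2a at 399 CPM (others 410 to 414). Pde3a was at 122 CPM in the norepinephrine sample of mouse 5 (others 106 to 108). Atf1 was at 31.2 CPM in the HCl vehicle sample of mouse 2 (others 35.6 to 36.4) and at 42.8 CPM in the UK 14,304 sample of mouse 4 (others 34.6 to 36.8). Rapgef3 was at 3.96 CPM in the HCl vehicle sample of mouse 3 (others 3.17 to 3.28). None of these 6 genes passed the edgeR test of either agonist over all samples.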

How the results depend on the processing

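Of 894 values of 28 log2 fold changes under 14 other settings and with each of the 18 samples left out, 815 kept their direction and their side of the threshold, 14 came to pass it and 65 turned sign, and 13 fold changes never turned. The genes called of 51 for UK 14,304 went from 0 to 1, Adcy1, with the replicate block, alone or with the own vehicle only, DESeq2, the ribosomal RNA split, the GC trend removed, or mouse 1, 4 or 5 left out. For norepinephrine the count went from 0 to 1 (Adcy1) with the GC trend removed and the block, and to 10 with mouse 4 left out and the block, beside 15.1% of all tested genes in that fit. It was 0 for the difference between the agonists in every fit run. The block changed no other call among the 51 genes. The cause of these changes was not tested.

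The sign turned only in fold changes that did not pass. With the GC trend removed and the block these were Gnai3 (-0.0224 with norepinephrine, -0.0211 with UK 14,304), Gna11 (0.0117 and 0.0085), Akap13 (0.0032 and 0.0153), Grk6 (0.0245 and 0.0596), and with norepinephrine Adcy6 (0.0215) and Rapgef3 (0.0353). For UK 14,304, Adcy6 was -0.0061 with the block, -0.0236 with the own vehicle, -0.0020 with DESeq2, and -0.0034, -0.0107 and -0.0225 without mouse 1, 3 and 5. Akap13 was 0.0027 with DESeq2 or its size factors, 0.0057 with the own vehicle, 0.0177 with the block added, 0.0150 with the ribosomal RNA split, and 0.0444 and 0.0164 without mouse 3 and 5. Grk6 was 0.0007 with the own vehicle, 0.0212 with the ribosomal RNA split, and 0.0341 and 0.0195 without mouse 2 and 4. For norepinephrine, Gnai1 was -0.1598 without mouse 4, Rapgef3 0.0939 without mouse 3, and Akap13 0.0192 without mouse 1.

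With 1 sample left out, fold changes that turned ranged from -0.0317 to 0.0467 (Adcy6), -0.0257 to 0.0369 (Akap13), -0.0389 to 0.0287 (Grk6), -0.1477 to 0.0049 (Rapgef3) and -0.0880 to 0.0770 (Rgs12) for UK 14,304, and from -0.0523 to 0.0072 (Adcy6), -0.0824 to 0.0346 (Akap13), -0.0814 to 0.0458 (Rapgef3) and -0.0377 to 0.1510 (Rgs12) for norepinephrine. Adcy1 ranged from 0.2966 to 0.4724 for UK 14,304 and from 0.1692 to 0.3224 for norepinephrine. Standard errors among the least expressed genes, up to 0.44, limit what could be detected.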
